A study of Bos taurus with 10 samples.

Results

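Collagen chains were described here in the right ventricle of newborn calves, as all probe sets of the array whose single gene symbol is COL followed by a number and a chain number. A probe set is the group of short probes with which the array reads one transcript. The rule found 48 of 24016 tested probe sets, for 23 of 9155 named genes: 22 probe sets of 9 fibrillar collagen genes, 6 of 3 basement membrane collagen genes and 20 of 11 other collagen genes. All of the animals were age-matched male Holstein calves, with 1 Affymetrix Bovine GeneChip per animal. The 5 control calves (176, 177, 180, 181 and 195) stayed in ambient normoxia at 1525 m, and the 5 hypoxia calves (173, 178, 192, 199 and 204; called PH in the titles) spent 14 days in hypobaric hypoxia equivalent to 4570 m, starting in both groups at postnatal day 3 to 7. No group carried a transgene or a drug, and the tissue was right ventricle with all its cell types, so fewer cells of a type and less RNA per cell cannot be told apart in any value below.

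Collagens are secreted proteins of 3 chains wound into a helix, and they form the scaffold around heart muscle cells. Fibrillar collagens, chiefly types I and III made by fibroblasts, assemble into the tension-bearing fibrils of the interstitium, and type V sits inside such fibrils. Type IV collagen forms the sheet-like network of basement membranes around muscle cells and capillaries. The other collagens attach to fibrils (types IX, XII and XXI), form beaded filaments (type VI), span the plasma membrane (types XIII and XVII) or lie in the basement membrane zone (types XV and XVIII).

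Values were log2 expression after the authors' RMA normalization. Array medians lay between 5.47 and 5.54, and the 6 measured cardiomyocyte markers had list means of 13.7 to 13.9 in every calf, as ventricular muscle should have. Hypoxia calves 199 and 178 stood apart from the other hypoxia calves on the first principal component over all probe sets, with scores of 46.1 and 34.4 against 9.79 to 13.9. The control calves scored -28.0 to -13.6, so this component also separated the groups, and calves 199 and 178 lay farthest from the controls. Values without both are given beside several results below. Those fits lack the hypoxia calves farthest from the controls on this component. The probe sets called over the whole array fell from 652 to 155 in them. The actin control probe sets had a 3' minus 5' difference of 2.81 to 4.35 in control calves and 1.51 to 2.55 in hypoxia calves, without overlap. The other 5 cattle control pairs overlapped between the groups, and the part of this difference in the results below was not tested. Of 44 collagen genes in the RefSeq cattle table (assembly ARS-UCD2.0), 21 had no probe set under their symbol and were not analysed here, among them COL4A2, COL5A1, COL6A3, COL8A1 and COL14A1. The 48 probe sets included 25 with a mean under 5 over the 10 arrays, and in 6 genes (COL4A3, COL4A4, COL9A1, COL10A1, COL13A1 and COL17A1) every probe set was that dim. The deposited table gives no detection call, so absence cannot be read from a low value.

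One collagen, COL12A1, was higher in hypoxia after adjustment over the whole array. Of the 48 probe sets 1 passed an adjusted p of 0.05 as higher and 0 as lower (limma with Benjamini-Hochberg adjustment over 24016 probe sets), which is 2.08% against a background of 1.65% called higher and 1.07% called lower. The share that passed was therefore near the background, and collagens as a group did not stand out by this count. At an unadjusted p under 0.05, 8 of 48 (16.7%) were higher and 0 lower in the same limma fit, where the background was 8.69% higher and 8.98% lower, 17.7% in all. These 8 probe sets belong to 6 genes: COL12A1, COL13A1, COL18A1, COL4A1, COL5A2 and COL5A3. The median difference over the 48 was 0.07, against -0.02 over all tested probe sets, and the differences ran from -0.48 (COL15A1) to 1.82 (COL12A1). In 2 of 48 probe sets (COL12A1 and COL4A1; 4.17%) all hypoxia calves exceeded all controls, where 2.71% of all probe sets did so. No collagen probe set had every hypoxia calf below every control, where 2.75% of all probe sets did, making 5.46% without overlap in either direction.

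**Figure D1:**
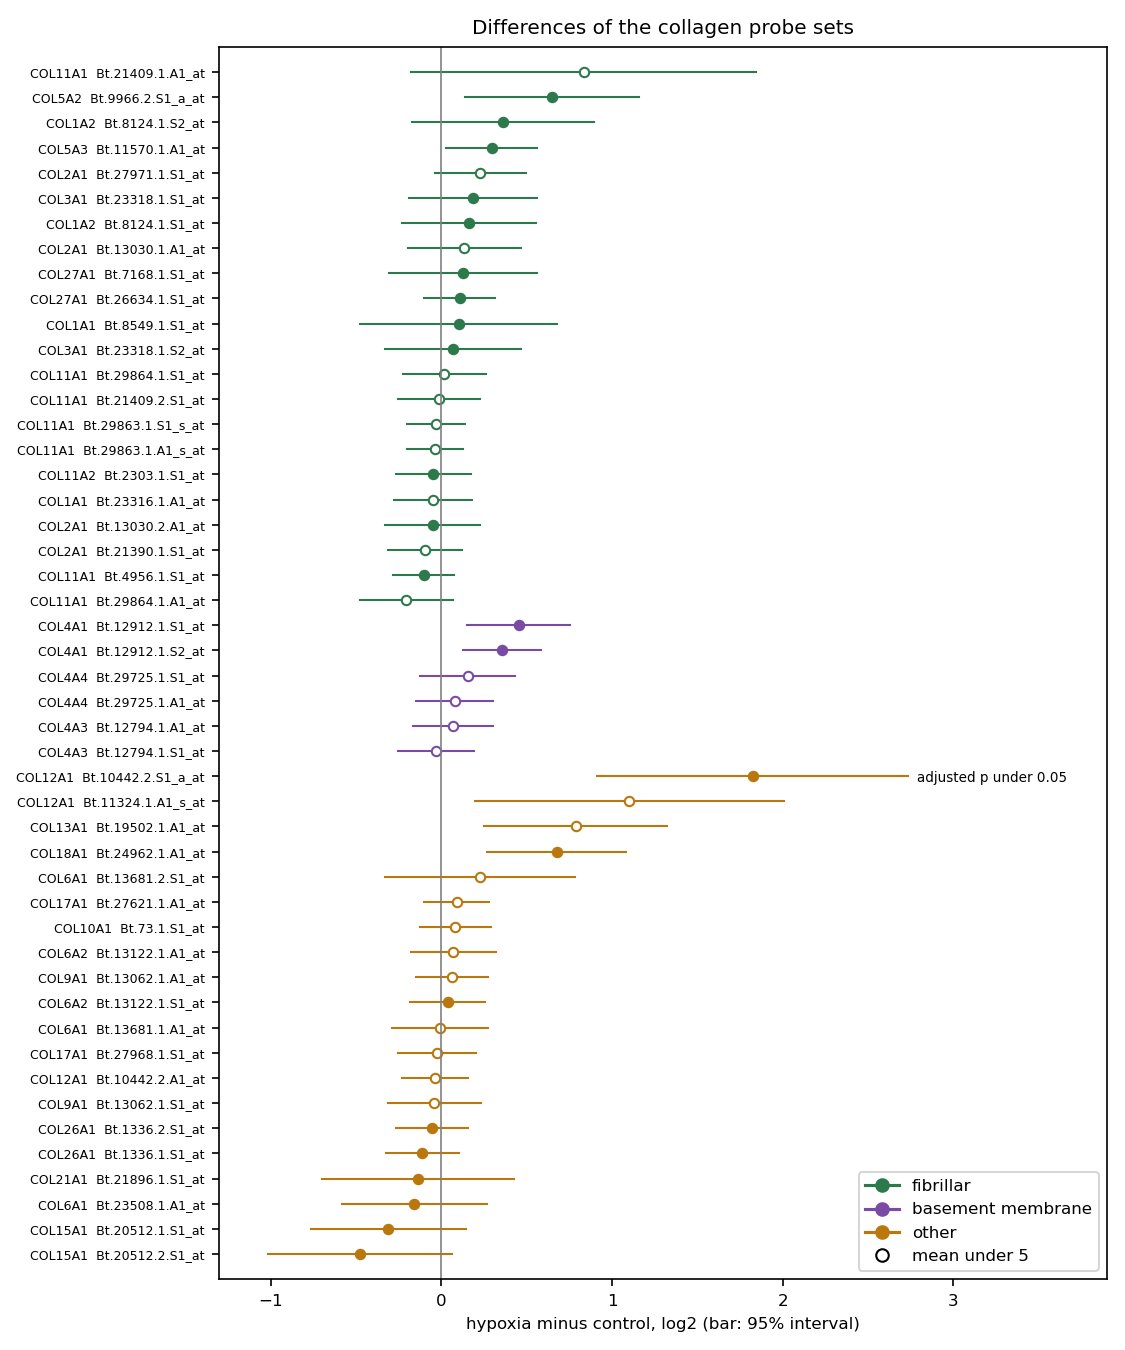
Difference between hypoxia and control calves on the log2 scale for each of the 48 collagen probe sets, with its 95% interval, coloured by class. Open points are probe sets with a mean under 5. The COL12A1 probe set at 1.82 is the one that passed, and most others lie within 0.5 of zero.

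COL12A1 encodes the chain of type XII collagen, which binds along the surface of type I fibrils. On its brightest probe set the control calves 176, 177, 180, 181 and 195 read 5.88, 6.10, 6.36, 6.12 and 5.90. The hypoxia calves 173, 178, 192, 199 and 204 read 7.91, 8.48, 6.76, 9.38 and 6.94. The groups did not overlap, the controls lay close together, and the hypoxia calves were spread widely with calf 199 highest and calves 192 and 204 lowest. COL12A1 rose by 1.82 ± 0.42 (SE, n = 5 calves per group; 3.54-fold; 95% interval 0.91 to 2.74; limma, adjusted p = 0.0428), from 6.07 ± 0.20 (SD) to 7.90 ± 1.09. The call passed in 3 of 10 fits that left out a calf, those without hypoxia calf 192, 199 or 204, and ended without any 1 control calf or without hypoxia calf 173 or 178 (differences of 1.45 to 2.11, highest adjusted p = 0.0968). It also ended with array weights, with the run of calf numbers as a covariate and without calves 178 and 199 together, where COL12A1 differed by 1.13 (adjusted p = 0.0744).

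The other COL12A1 probe sets were dim and disagreed. One of them read 2.37, 3.06, 2.93, 2.89 and 2.88 in the control calves 176, 177, 180, 181 and 195 and 3.93, 3.66, 3.00, 5.73 and 3.32 in the hypoxia calves 173, 178, 192, 199 and 204. Calf 199 was again highest and calf 192 again lowest among the hypoxia calves, and calf 192 fell within the controls. Its difference of 1.10 ± 0.41 did not pass (limma, adjusted p = 0.188). The third COL12A1 probe set differed by -0.04 ± 0.09 with all 10 calves between 4.05 and 4.42. COL12A1 averaged over its probe sets gave a difference of 0.96 that did not pass (limma, adjusted p = 0.0690). That average gives the dim probe sets (means of 3.38 and 4.29) the same weight as the brightest (6.98). It therefore cannot tell a smaller change of the gene from dilution by dim probe sets.

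**Figure D2:**
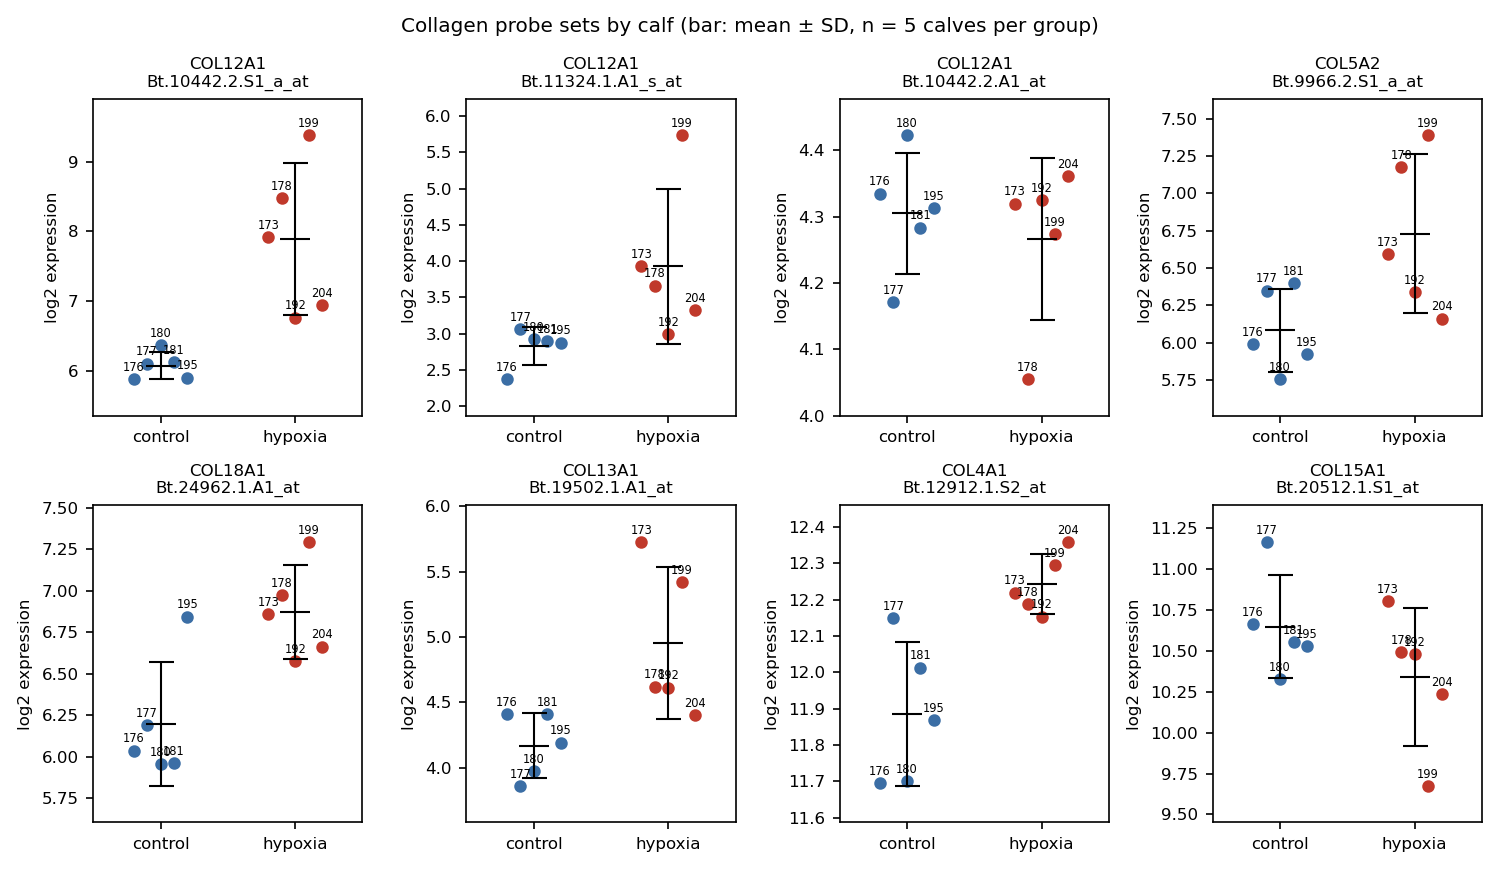
Log2 expression by calf for 8 collagen probe sets in control (blue) and hypoxia (red) calves, with calf numbers, group mean and SD (n = 5 per group). In the first panel the 5 hypoxia calves lie between 6.76 and 9.38, all above the controls, while the third COL12A1 probe set shows no such separation. Each panel has its own axis, which does not start at 0.

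Type I and type III collagen, the main interstitial fibrils, did not differ detectably between the groups. COL1A1, one chain of type I collagen, read 9.62, 10.37, 9.11, 9.81 and 9.58 in the control calves 176, 177, 180, 181 and 195 and 10.35, 9.54, 9.50, 10.35 and 9.26 in the hypoxia calves 173, 178, 192, 199 and 204. The groups overlapped fully, since control calf 177 matched hypoxia calves 173 and 199. COL1A2, the partner chain, read 11.91, 12.22, 11.52, 11.97 and 11.73 in controls and 12.37, 12.12, 11.72, 12.35 and 11.59 in hypoxia in the same order of calves. The sole chain of type III collagen, COL3A1, read 12.80, 13.25, 12.28, 12.81 and 12.63 in controls and 13.18, 12.80, 12.63, 13.04 and 12.47 in hypoxia. For all 3 genes the highest control lay among or above the highest hypoxia calves. The 95% intervals of the differences were -0.48 to 0.68 for COL1A1, -0.23 to 0.55 for COL1A2 and -0.33 to 0.47 for COL3A1. Without calves 178 and 199 the differences were 0.00519, 0.0276 and 0.00515. The second COL1A2 probe set differed by 0.36 ± 0.24 and the second COL3A1 probe set by 0.19 ± 0.17, without passing (limma, adjusted p = 0.494 and 0.636).

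These chains varied together from calf to calf within each group. After each group's mean was subtracted, COL1A1 and COL1A2 had a Pearson r of 0.93 and a Spearman rho of 0.95 over 10 calves (permutation within groups, p = 0.00201 and 0.000556; adjusted over the 4 pairs tested, 0.00269 and 0.000741). COL1A1 and COL3A1 had an r of 0.96 and a rho of 0.99 (permutation p = 6.94e-05 for both, the smallest possible; adjusted 0.000139 and 0.000278). COL1A2 and COL3A1 had an r of 0.95 and a rho of 0.98 (permutation p = 6.94e-05 and 0.000278; adjusted 0.000139 and 0.000556). Without the 2 calves farthest from the median of the first gene, r was 0.89, 0.92 and 0.92. Control calf 177 and hypoxia calves 173 and 199 were high in all 3 genes, and control calf 180 and hypoxia calf 204 were low. The pattern was not particular to these genes. COL6A1 was also high in calves 177, 173 and 199 and low in control calf 180, and its correlation with these chains was not tested. Among the 23 collagen probe sets with a mean of at least 5, which include these genes, control calf 177 was the highest control in 12. Control calf 180 was the lowest control in 14, and calf 173 the highest hypoxia calf in 10. The same counts were not made over all probe sets of the array. The spread that these genes show within a group is thus shared between them, and it was larger than the difference between the group means.

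**Figure D3:**
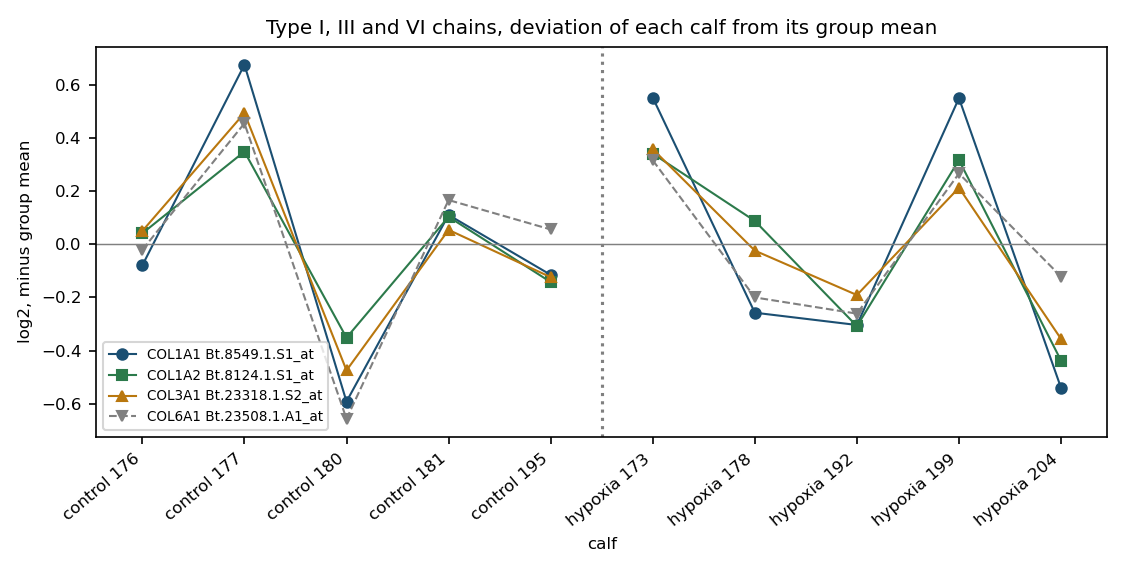
Deviation of each calf from its group mean in log2 expression for COL1A1, COL1A2, COL3A1 and COL6A1. The lines of COL1A1, COL1A2 and COL3A1 rise and fall together, with control calf 177 and hypoxia calves 173 and 199 high and calves 180 and 204 low. The COL6A1 line is also high in calves 177, 173 and 199 and low in control calf 180.

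The type V chains COL5A2 and COL5A3 did not pass. COL5A2, a chain of the type V collagen found inside type I fibrils, read 5.99, 6.35, 5.75, 6.40 and 5.93 in the control calves 176, 177, 180, 181 and 195 and 6.59, 7.17, 6.34, 7.39 and 6.16 in the hypoxia calves 173, 178, 192, 199 and 204. Calves 178 and 199 were highest, and calves 192 and 204 fell within the controls. COL5A2 differed by 0.65 ± 0.23 (95% interval 0.14 to 1.16; limma, adjusted p = 0.167), and by 0.28 without calves 178 and 199. In the gene order of the RefSeq table it neighbours COL3A1. COL5A3, another type V chain, read 6.04, 6.33, 5.70, 5.99 and 5.999 in controls and 6.18, 6.41, 6.17, 6.52 and 6.26 in hypoxia, and control calf 177 lay above hypoxia calves 173, 192 and 204. COL5A3 differed by 0.30 ± 0.12 (limma, adjusted p = 0.231), and by 0.19 without calves 178 and 199.

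The remaining fibrillar chains are COL2A1, COL11A1 and COL11A2, known from cartilage, and COL27A1, and none of them passed. Their brightest probe sets differed by -0.05 ± 0.13 for COL2A1, -0.10 ± 0.08 for COL11A1, -0.05 ± 0.10 for COL11A2 and 0.13 ± 0.20 for COL27A1. COL11A1 had 7 probe sets, the most of any gene here. Of the 22 fibrillar probe sets, 0 passed in either direction by limma and 2 had an unadjusted p under 0.05, both as higher. Over all tested probe sets 8.69% were higher at that unadjusted p. The fibrillar median difference was 0.09, against -0.02 over all tested probe sets.

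Of the basement membrane collagens, COL4A1 was the one measured above the dim range. COL4A1, a chain of the type IV collagen of most basement membranes, read 11.69, 12.15, 11.70, 12.01 and 11.87 in the control calves 176, 177, 180, 181 and 195 and 12.22, 12.19, 12.15, 12.30 and 12.36 in the hypoxia calves 173, 178, 192, 199 and 204. All hypoxia values exceeded all control values, though hypoxia calf 192 and control calf 177 were within rounding of each other. The COL4A1 difference was 0.36 ± 0.10, or 1.28-fold (95% interval 0.13 to 0.59), and missed the threshold (limma, adjusted p = 0.0955). The second COL4A1 probe set differed by 0.45 ± 0.14 (adjusted p = 0.106), with overlapping groups.

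COL4A3 and COL4A4, chains of the specialised basement membranes of kidney and lung, were dim. COL4A3 lay between 4.19 and 4.69 in controls and between 4.41 and 4.69 in hypoxia, and COL4A4 between 4.31 and 4.84 and between 4.65 and 4.75. These ranges overlapped, and the differences were 0.07 ± 0.11 and 0.08 ± 0.10. Over the 6 basement membrane probe sets 0 passed in either direction by limma, 2 had an unadjusted p under 0.05, both as higher, and the median difference was 0.12. Both of the 2 are of COL4A1. Over all tested probe sets 8.69% were higher at that unadjusted p, and the median was -0.02.

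Type XV and type XVIII collagen, related proteins of the basement membrane zone whose ends can be cut off as anti-angiogenic fragments, differed from each other. COL18A1 read 6.04, 6.19, 5.96, 5.96 and 6.84 in the control calves 176, 177, 180, 181 and 195 and 6.86, 6.98, 6.57, 7.29 and 6.66 in the hypoxia calves 173, 178, 192, 199 and 204. Control calf 195 lay within the hypoxia calves and the other 4 controls lay below them all. COL18A1 differed by 0.68 ± 0.19 (1.60-fold) without passing (limma, adjusted p = 0.0802), and leaving out control calf 195 gave a COL18A1 difference of 0.84 that passed (adjusted p = 0.0207). COL15A1 read 10.66, 11.17, 10.33, 10.55 and 10.53 in controls and 10.80, 10.49, 10.48, 9.67 and 10.24 in hypoxia, with calf 199 lowest of all. COL15A1 differed by -0.31 ± 0.21 on this probe set and by -0.48 ± 0.25 on its other one (limma, adjusted p = 0.492 and 0.349). On the first, leaving out hypoxia calf 199 gave -0.14 and leaving out control calf 177 gave -0.18.

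COL13A1, a collagen of the plasma membrane known from the junction between nerve and muscle, was dim but differed by 0.79 ± 0.24 (1.73-fold; limma, adjusted p = 0.114). It read 4.41, 3.86, 3.98, 4.41 and 4.19 in the control calves 176, 177, 180, 181 and 195 and 5.73, 4.62, 4.61, 5.42 and 4.40 in the hypoxia calves 173, 178, 192, 199 and 204. Calves 173 and 199 were well above every control, and calf 204 was level with the highest controls.

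Type VI collagen, the beaded filament around cells, did not pass on any of its 5 probe sets. COL6A1 read 10.30, 10.77, 9.66, 10.49 and 10.38 in the control calves 176, 177, 180, 181 and 195 and 10.48, 9.96, 9.90, 10.43 and 10.04 in the hypoxia calves 173, 178, 192, 199 and 204, with wide overlap. COL6A1 differed by -0.16 ± 0.19. COL6A2, its partner chain, read 6.24, 6.24, 6.44, 6.41 and 6.19 in controls and 6.21, 6.37, 6.32, 6.21 and 6.61 in hypoxia, and differed by 0.04 ± 0.10. Within groups COL6A1 and COL6A2 had an r of -0.55 and a rho of -0.67 over 10 calves (permutation p = 0.0988 and 0.0542; adjusted 0.0988 and 0.0542), which did not pass, and r was -0.45 without control calves 180 and 177. Averaging each gene over its probe sets gave an r of 0.17.

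The other chains outside the fibrillar and basement membrane classes differed little. COL21A1, a fibril-associated chain, and COL26A1 differed by -0.14 ± 0.26 and -0.11 ± 0.10, and the brightest probe sets of COL9A1, COL10A1 and COL17A1, chains known from cartilage and skin, by 0.07 ± 0.10, 0.08 ± 0.09 and 0.09 ± 0.09. Of the 20 probe sets in this class, 1 passed as higher and 0 as lower by limma, and 4 had an unadjusted p under 0.05 as higher and 0 as lower. The median difference was 0.02. Over all tested probe sets 1.65% passed as higher, 8.69% were higher at that unadjusted p, and the median was -0.02.

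Whether chains responded unequally was tested within each calf, as the difference between a pair of probe sets. The 4 pairs for which both genes were measured were tested by exact permutation of 5 against 5 calves (two-sided), which cannot give a p below 0.00794. COL12A1 minus COL1A1 was -3.63 ± 0.55 (SD, n = 5) in controls and -1.90 ± 0.83 (n = 5) in hypoxia, a shift of 1.72 ± 0.44 (SE; exact p = 0.00794; adjusted over the 4 pairs, 0.0317). The groups did not overlap, but only barely, with -2.74 the highest control and -2.73 the lowest hypoxia calf. When each gene was averaged over its probe sets, the groups overlapped. COL5A2 minus COL1A2 shifted by 0.49 ± 0.17 (exact p = 0.0238, adjusted 0.0317), from -5.78 ± 0.13 to -5.30 ± 0.35. That call ended when each gene was averaged over its probe sets (0.38, adjusted p = 0.0952). COL15A1 minus COL18A1 shifted by -0.99 ± 0.36 (exact p = 0.0238, adjusted 0.0317), from 4.45 ± 0.48 to 3.46 ± 0.64. COL1A1 minus COL3A1, the balance of types I and III, shifted by 0.03 ± 0.13 (exact p = 0.794, adjusted 0.794). With a calf left out, when the smallest exact p is 0.0159, the 3 shifts that passed kept their direction, but most no longer passed after adjustment (0.0635). Some of the pairs, COL12A1 and COL1A1 among them, were chosen with earlier results known. A shift shows that the probe sets of a pair changed unequally, and it does not show which of them changed.

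**Figure D4:**
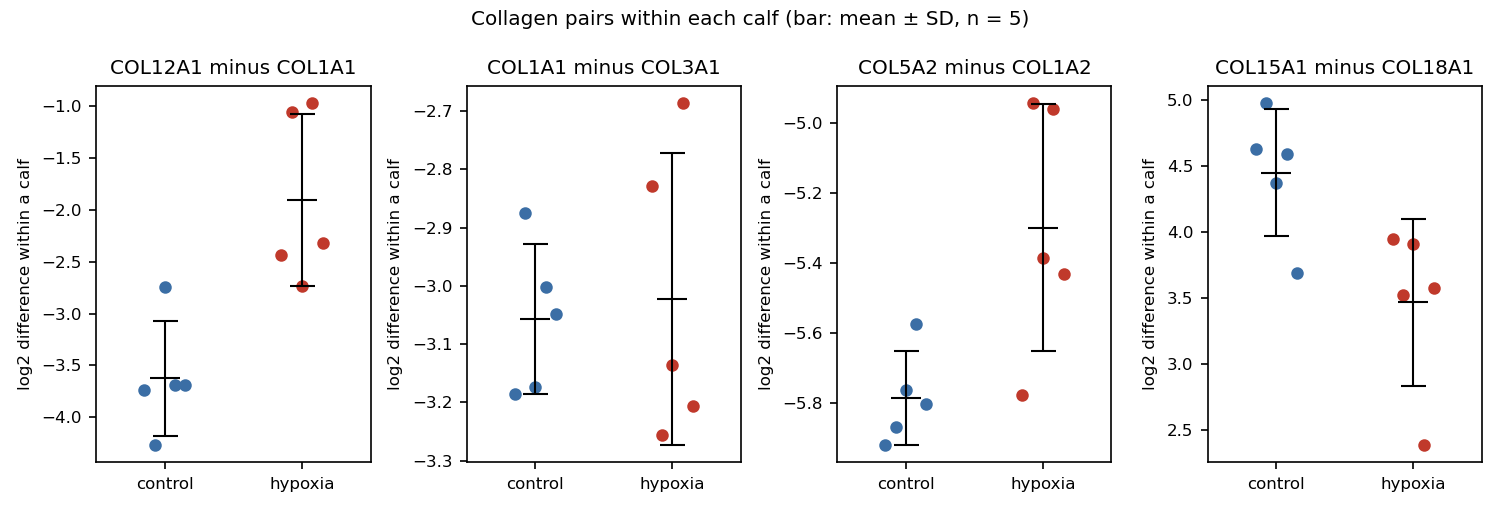
Difference in log2 expression between paired collagen genes within each calf (points), with group mean and SD (n = 5). COL12A1 minus COL1A1 and COL5A2 minus COL1A2 shifted upward in hypoxia by 1.72 and 0.49, COL15A1 minus COL18A1 shifted by -0.99, and COL1A1 minus COL3A1 shifted by 0.03. The axes differ and do not start at 0.

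The enzymes and partners of collagens were counted in the same fit. Of 59 measured genes in 6 lists, 7 were higher and 0 lower by limma (11.9%), where 3.66% of named genes were called on their brightest probe set, 2.17% higher and 1.49% lower, and the median difference was 0.16. The lists were chosen with earlier results of these data known, so this count is a description. Among 16 genes of chain folding and modification, 2 were higher. P4HA1, a catalytic subunit of the prolyl hydroxylase that stabilises the collagen helix, lay between 9.19 and 9.77 in controls and between 10.21 and 10.92 in hypoxia, and P4HA2, the alternative subunit, between 8.16 and 8.71 and between 8.97 and 9.48. Neither gene overlapped between the groups, with rises of 0.86 ± 0.15 and 0.77 ± 0.15 (adjusted p = 0.0161 and 0.0209).

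Among 7 genes of propeptide removal and cross-linking 1 was higher. LOXL1, a lysyl oxidase relative that cross-links matrix proteins, lay between 7.32 and 8.44 in controls and between 8.81 and 10.05 in hypoxia and rose by 1.61 ± 0.27 (limma, adjusted p = 0.0133). LOXL4, another member, reached 9.36 in calf 178 and 9.17 in calf 199, with 6.45 to 6.95 in calves 173, 192 and 204, and missed the threshold (difference 1.47 ± 0.54, adjusted p = 0.177, and 0.47 without calves 178 and 199). Of 14 fibril-associated genes 1 was higher, the small proteoglycan BGN, with a rise of 1.10 ± 0.19 (adjusted p = 0.0163) and a median over the list of 0.44. DCN, a proteoglycan that coats fibrils, differed by -0.49 ± 0.12 and missed the threshold (adjusted p = 0.0537). It passed as lower under median centring (adjusted p = 0.0426), with a filter on dim probe sets, with another variance model and with array weights.

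In the basement membrane list 1 of 7 genes was higher, LAMA4, a laminin chain of vessels, with a rise of 0.44 ± 0.09 (limma, adjusted p = 0.0225). LAMA4 passed on 1 of its 2 probe sets. LAMC1, the common laminin gamma chain, had a difference of 0.53 ± 0.13 on the brightest probe set (adjusted p = 0.0578) but passed on 3 of its 6 probe sets and as their mean (0.71, adjusted p = 0.0132). Of 3 measured collagen receptors 1 was higher: ITGA10, a collagen-binding integrin chain, rose by 1.20 ± 0.21 (adjusted p = 0.0151), and ITGB1, the shared beta chain, differed by 0.40 ± 0.10 (adjusted p = 0.0711). ITGA10 passed on 1 of its 2 probe sets. Among 12 genes of breakdown 1 was higher, CTSK, a collagen-cutting cathepsin, with a rise of 0.67 ± 0.12 (adjusted p = 0.0156). TIMP1, an inhibitor of matrix metalloproteinases, reached 11.48 in calf 178 and 12.29 in calf 199, with 8.93 to 9.72 in calves 173, 192 and 204, and missed the threshold (difference 1.75 ± 0.53, adjusted p = 0.106, and 0.77 without calves 178 and 199). Without calves 178 and 199 the calls on P4HA1, P4HA2, LOXL1, BGN, LAMA4 and CTSK ended (adjusted p = 0.0578 to 0.102), with smaller differences in the same direction, and that on ITGA10 did not. The calls on P4HA2 and LAMA4 also ended without control calf 177 or 181 (adjusted p = 0.0517 to 0.0588), and those on P4HA1, P4HA2 and ITGA10 with the run of calf numbers as a covariate (0.0503 to 0.0599).

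**Figure D5:**
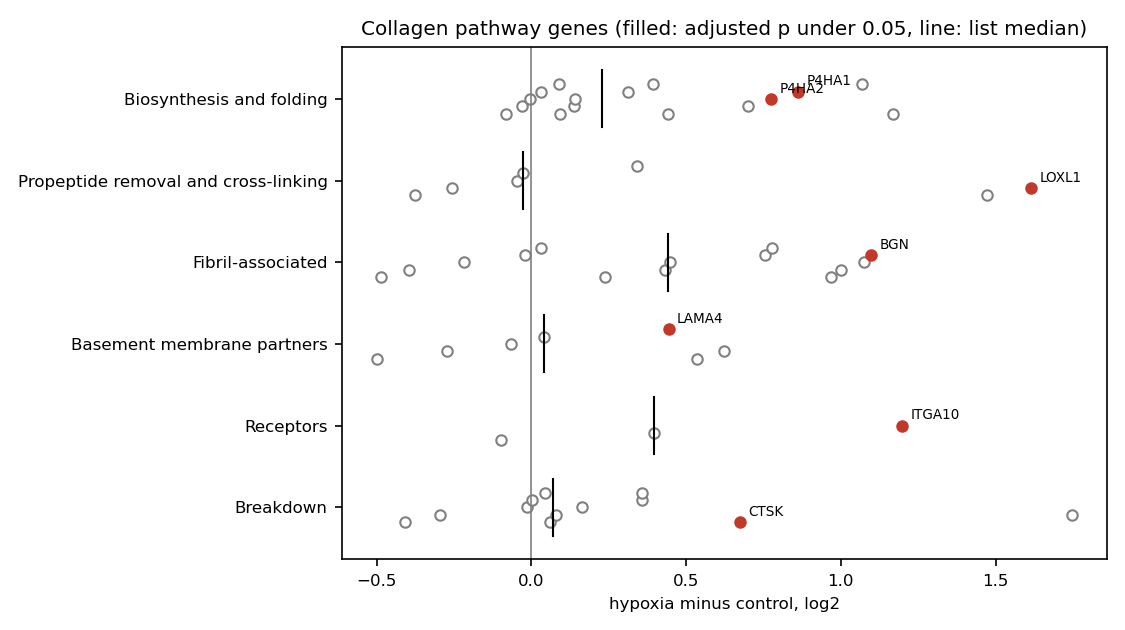
Difference between hypoxia and control calves on the log2 scale for 59 collagen pathway genes in 6 lists. Filled points are the 7 genes with an adjusted p under 0.05, all higher in hypoxia, and the vertical line in each row is the list median.

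Markers of the cells a ventricle holds were read beside the collagens. Of 10 measured genes in the fibroblast list VIM (0.86 ± 0.14) and PI16 (1.71 ± 0.33) were higher and PDGFRA (-0.89 ± 0.17) was lower by limma (adjusted p = 0.0123, 0.0238 and 0.0213), where 3.66% of named genes were called. The cell type in which VIM rose was not tested. The fibroblast list mean lay between 9.04 and 9.52 in controls and between 9.19 and 9.75 in hypoxia. PDGFRA passed on 1 of its 3 probe sets. Of 8 endothelial and 9 smooth muscle and pericyte markers 0 passed, with list means of 6.85 to 7.24 against 7.08 to 7.53 and of 7.93 to 8.49 against 8.22 to 8.73. The median differences of these lists were 0.24 and 0.22. In the second list CNN1 differed by 1.61 ± 0.53 and RGS5 by 0.45 ± 0.13 (limma, adjusted p = 0.134 and 0.0808). PDGFRB and KCNJ8 in it were negative (-0.15 and -0.11). The 4 measured macrophage markers had the highest median difference of the 8 lists, 0.73, with list means of 6.56 to 7.62 in controls and 6.97 to 8.22 in hypoxia. None of them passed: CD68 differed by 0.93 ± 0.28, CD14 by 0.91 ± 0.45, AIF1 by 0.55 ± 0.19 and CSF1R by 0.11 ± 0.20 (limma, adjusted p = 0.103, 0.320, 0.150 and 0.844). Of 5 cartilage and valve markers 4 had means under 5, as did 2 of 3 epicardial and 2 of 3 Schwann cell markers. The fibroblast list shares DCN and LUM with the fibril-associated list. The part of cell composition in the collagen and pathway differences was not tested.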

How the data were processed

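RNA of 10 right ventricles was hybridised to 1 array each, per the labels. The deposited values were log2 expression per probe set, made by the authors with RMA, per the submitters' processing notes; the version is not given in the sources used here. This method equalises array distributions and can compress differences near the top of the range (14.36 here). The deposited tables were identical (largest difference 0). Of 24128 probe sets, 112 controls were left out. Symbols came from the platform annotation: 13292 probe sets had 1, 86 several and 10638 none. All 48 collagen probe sets matched the RefSeq table, and 0 symbols changed. A gene with several probe sets was represented by its brightest, by mean over the 10 arrays.

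The groups were compared by lmFit and eBayes of limma 3.58.1 (R 4.3.3) over 24016 probe sets, with Benjamini-Hochberg adjustment and a threshold of 0.05. Pairs and correlations were tested by permutation in Python 3.11.15. Of 7 pairs of responses and 8 partner pairs planned, 4 and 4 could be run, since the other genes have no probe set here. Named were all members that passed, a list of common collagens where measured, the 3 genes of each class with the largest difference, and, in each pathway list, genes that passed and the 2 with the smallest p. The members and lists were chosen with earlier results of these data known. Fibrillar collagens were types I, II, III, V, XI, XXIV and XXVII, and basement membrane collagens type IV. Tested on simulated data with the real spread, the limma fit found 34.9% of changes of 0.5, 82.7% of changes of 1 and 99.1% of changes of 2 among 24016 probe sets. The simulation used independent normal noise with the same spread in both groups, and changed 200 probe sets per run. Its rates need not hold for probe sets such as that of COL12A1, with an SD of 0.20 in controls and 1.09 in hypoxia. The number of arrays limits the precision. Each calf is a separate animal, and calf numbers pair nothing. Alternatives covered scaling, dim probe sets, variance model, weights, test, calf-number run, threshold, probe set choice and left-out calves.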

Additional observations from a re-analysis of the deposited data

Results flagged for a closer look

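In groups of 5 calves, a value was singled out where its gap to the nearest other calf exceeded 0.71 of the group's whole range. This held for 6 of 96 groups (48 probe sets in 2 groups), and chance singles out about 1 in 20. Control calf 195 read 6.84 for COL18A1 against 5.96 to 6.19 in the other controls. Control calf 177 read 11.5 on the second COL1A2 probe set against 10.6 to 10.8. On a dim COL6A1 probe set control calf 176 read 4.99 against 4.42 to 4.54, and on a dim COL9A1 probe set control calf 181 read 3.07 against 2.39 to 2.51. On the dim COL12A1 probe sets, control calf 176 read 2.37 against 2.88 to 3.06 in the other controls, and hypoxia calf 178 read 4.05 against 4.27 to 4.36 in the other hypoxia calves.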

How the results depend on the processing

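No paired analysis was possible because no calf number occurs in both groups. The count of collagen probe sets higher in hypoxia was 1; it was 0 with array weights, with a Welch test, with the run of calf numbers as a covariate, without hypoxia calves 178 and 199 and at a threshold of 0.01, it was 3 at a threshold of 0.1, and it ran from 0 to 1 with each calf left out. At an unadjusted p under 0.05 limma gave 8 higher and 0 lower, and the Welch test 6 and 0. Across alternatives limma gave 6 to 10 higher at that unadjusted p, and 1 lower without control calf 180 or hypoxia calf 173 and 0 lower otherwise. The count lower at an adjusted p of 0.05 was 0 in every alternative. The Welch test called 0 of 24016 probe sets after adjustment and so ended all 7 pathway calls (adjusted p = 0.107 to 0.125). With each calf left out, the shift of COL12A1 minus COL1A1 ran from 1.49 to 1.94, COL5A2 minus COL1A2 from 0.40 to 0.61, COL15A1 minus COL18A1 from -1.18 to -0.71 and COL1A1 minus COL3A1 from -0.0497 to 0.0928. Averaged over each gene's probe sets, COL5A2 minus COL1A2 was 0.38 (adjusted p = 0.0952), COL1A1 minus COL3A1 was -0.10 and the r of COL6A1 and COL6A2 was 0.17. The shift of COL12A1 minus COL1A1 was smaller under that averaging, and hypoxia calf 192 then fell below control calf 180. Among the 14 named collagen probe sets, signs also turned, without a call, for COL6A1 averaged over its probe sets (0.0212) and with a calf left out for COL1A1 (-0.0452 to 0.27), COL3A1 (-0.0504 to 0.19), COL6A2 (-0.0283 to 0.0724) and COL4A4 (-0.0037 to 0.13). Signs turned with a calf left out for the brightest probe sets of 4 other genes, COL27A1 (-0.030 to 0.262), COL2A1 (-0.118 to 0.047), COL21A1 (-0.371 to 0.021) and COL11A2 (-0.102 to 0.005). Planned pairs with COL4A2, COL5A1, COL6A3, COL8A1, COL8A2 or COL14A1 were not run. Of 259 values of the 14 named collagen probe sets under alternatives, 238 kept direction and side of the threshold. Of the 14, only COL12A1 passed in the main fit, and its call ended in 12 alternatives. For the others the side kept was that of no call.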

Other observations

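One probe set annotated to COL11A1 read 2.85 to 3.26 in the 5 control calves and 4.47, 3.97, 2.55, 5.53 and 2.82 in hypoxia calves 173, 178, 192, 199 and 204. It was singled out after its values were seen. Its difference of 0.83 ± 0.46 did not pass (limma, adjusted p = 0.390), and its hypoxia SD of 1.22 was 7.98 times its control SD of 0.15. The other 6 COL11A1 probe sets differed by -0.20 to 0.02, so the pattern was not seen across the gene. All of them but the brightest (mean 5.31) had means of 2.13 to 3.91, so dim that a change could go unseen. The brightest COL12A1 probe set, also wide in hypoxia, had a ratio of 5.51. Among the 23 collagen probe sets with a mean of at least 5, hypoxia calves 173, 178 and 199 held the 3 highest hypoxia values in 9, among them those of COL12A1, COL5A2, COL18A1, COL1A1, COL1A2 and COL3A1.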
